A study of Mus musculus with 3 samples.

Results

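Isolated Tbr2 peaks are peaks called for the transcription factor Tbr2 that stand far from any other listed Tbr2 peak. They were chosen by position from the peaks on chromosomes 1 to 19. A peak was a member when no other Tbr2 midpoint lay within 300 kb on either side. Of 14321 autosomal Tbr2 peaks, 577 met this, 4.03% (95% Wilson interval 3.72 to 4.36, counting error only). The other 13744 autosomal Tbr2 peaks are the comparison. The rule left out 212 peaks on the X and 6 on the Y chromosome.

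Chromatin immunoprecipitation and sequencing (ChIP-seq) was done on cerebral cortex of C57BL/6 mouse embryos at E14.5, with 1 library for Tbr2, 1 for Neurog2 and 1 of input chromatin. All 3 groups are wild type and the labels give no treatment other than fixation of the tissue with 2 mM disuccinimidyl glutarate for 45 min and 1% formaldehyde for 10 min. The whole cortex was used, so the lists average over its cell types. With a single library for each factor, the spread between experiments cannot be given, and peaks are not replicates. Sequencing depth is unknown. The input library enters no comparison here.

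Tbr2 is the T-box transcription factor made from the Eomes gene. It marks the intermediate progenitors of the developing cortex, the dividing cells that give rise to excitatory neurons. Neurog2 is a proneural basic helix-loop-helix factor that acts in radial glia and in the intermediate progenitors they produce. Genes regulated by such factors often have several binding sites around them.

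Most Tbr2 peaks had a close neighbour. The median distance to the nearest other Tbr2 midpoint was 24.0 kb among the peaks outside the rule (interquartile range 6.89 to 68.7). Among the isolated peaks it was 409 kb (343 to 539), with a longest distance of 3848 kb. Both flanks were measured and over 500 kb in 174 isolated peaks, and over 1 Mb in 27. On the far side the gap was wider, at a median of 705 kb over the 564 members that were not at a chromosome end. The remaining 13 members were the first or last listed peak of their chromosome, where only 1 side could be measured. These distances chose the members and are given as a description. Stretches of the assembly in which no read can be placed also lengthen them, and their part was not tested.

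**Figure D1:**
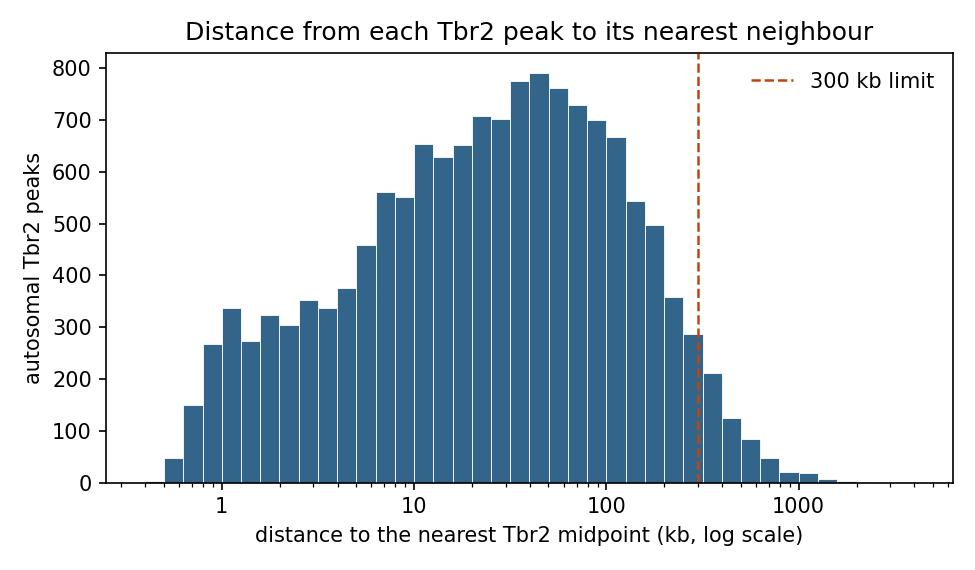
Number of autosomal Tbr2 peaks (vertical axis) by distance in kb to the nearest other Tbr2 midpoint (horizontal axis, log scale), with the 300 kb limit as a dashed line. The distances form 1 continuous distribution, and the 577 isolated peaks are its right tail.

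The limit does not fall at a break in that distribution. The 3 members just inside it lay on chromosome 11 at 86570866 to 86571504 (nearest midpoint 300.1 kb, 26 tags), chromosome 11 at 75683212 to 75683969 (300.4 kb, 106 tags) and chromosome 4 at 120374679 to 120375123 (300.4 kb, 38 tags). The last of these is tied with its own right neighbour, the isolated peak on chromosome 4 at 120674743 to 120675939 (138 tags). The 3 peaks just outside it lay on chromosome 19 at 49913535 to 49914414 (299.5 kb, 76 tags), chromosome 9 at 95068809 to 95069420 (299.3 kb, 35 tags) and chromosome 12 at 49070546 to 49071158 (299.2 kb, 28 tags). Tags are the sequence reads the authors counted in a peak.

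Isolated peaks were somewhat weaker and narrower than the other Tbr2 peaks. Their tags ran from 15 to 342 with a median of 34 (interquartile range 25 to 48), and those of the other peaks from 15 to 527 with a median of 39 (28 to 60). The 95% binomial intervals of these medians, which cover counting over peaks only, were 32 to 35 and 38 to 39. Median width was 658 bp (interquartile range 564 to 769) against 707 bp (594 to 845), with intervals of the median of 642 to 677 and 703 to 710. Tags per 100 bp of peak had medians of 5.10 and 5.46. The authors' fold change was closer, at medians of 9.48 and 9.66, and the interval for isolated peaks reached 9.53, where that of the others began. The interquartile ranges of all of these measures overlapped widely. Width, tags and fold change come from the list whose positions made the rule, so none of these differences was tested.

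The difference in tags was present at both ends of the range. At least 50 tags were found in 140 isolated peaks, 24.3% (20.9 to 27.9), and in 35.0% (34.2 to 35.8) of the others. Over all autosomal Tbr2 peaks the share was 34.6%. At least 100 tags were found in 33 isolated peaks, 5.72% (4.10 to 7.92), against 8.69% (8.23 to 9.17) of the others and 8.57% of all. Under 30 tags were counted in 222 isolated peaks, 38.5%, and in 29.9% of the others. In the deposited p-value, 282 isolated peaks, 48.9% (44.8 to 53.0), were at or below 1e-10, and 54.9% (54.0 to 55.7) of the others were.

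Strength did not fall steadily with distance. Peaks with a neighbour at 1 to 10 kb had the highest median tags, 43, and the highest median width, 736 bp. Those with a neighbour within 1 kb had medians of 36 tags and 680 bp. Beyond 100 kb the medians were nearly level, with 34 tags at 100 to 200 kb, 35 at 200 to 300 kb, 33 at 300 to 500 kb and 34 past 500 kb. Median widths over the same steps were 672, 686, 667 and 641 bp. Peaks with a neighbour at 10 to 30 kb and at 30 to 100 kb stood between, with medians of 40 and 37 tags and of 713 and 697 bp. The median tags of isolated peaks were thus close to those of peaks with a neighbour at 100 to 300 kb.

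**Figure D2:**
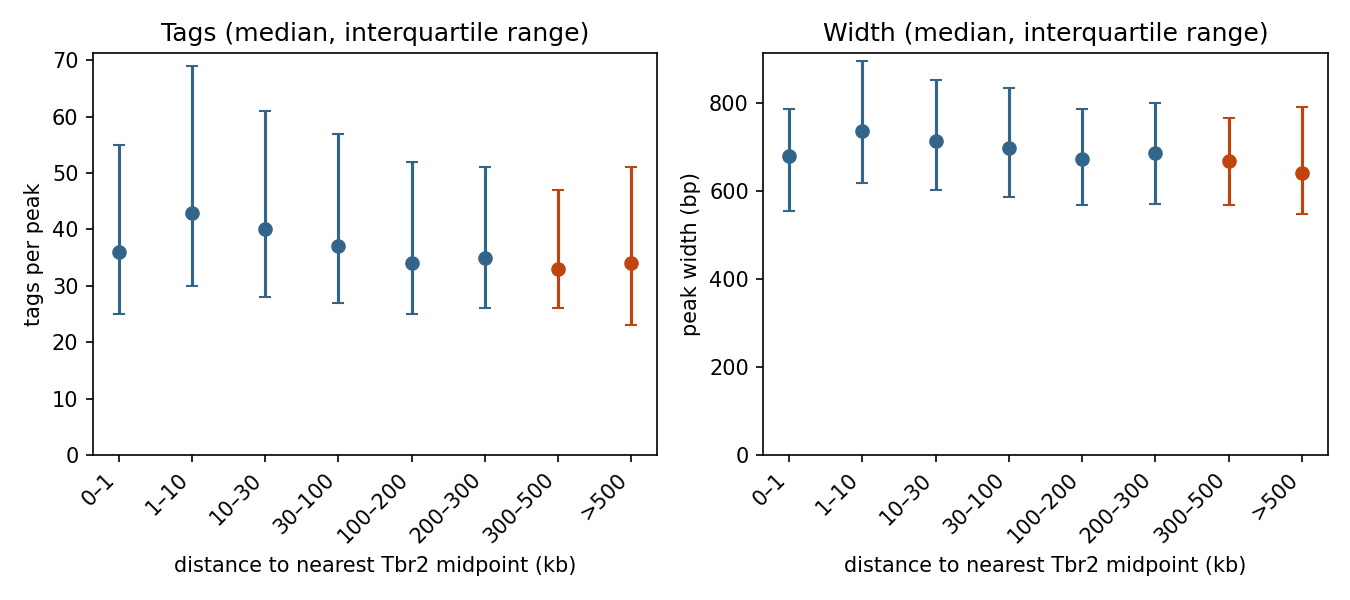
Median (points) and interquartile range (bars) of tags per peak (left) and of peak width in bp (right) for autosomal Tbr2 peaks, by distance in kb to the nearest other Tbr2 midpoint. Isolated peaks, past 300 kb, are in orange; tags are highest at 1 to 10 kb and nearly level past 100 kb.

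At like numbers of tags the widths did not separate. All autosomal Tbr2 peaks were divided into 10 classes by tags (deciles). The median width of isolated peaks was lower than that of the others in 6 deciles and higher in 4, and the intervals of the median overlapped in each. In the lowest decile, 15 to 21 tags, the medians were 482 and 471 bp, and in the highest they were 1107 and 1108 bp. Over all peaks the median fold change was slightly lower for isolated peaks, 9.48 against 9.66. Within the deciles it was higher for isolated peaks in 8, lower in 1 and equal in 1. In the highest decile it was 30.3 (20.4 to 38.7) for isolated peaks and 23.8 (23.0 to 24.8) for the others, where their median tags were 146 and 123. The interval of isolated peaks lay wholly above that of the others in 1 of the 10 deciles, at 34 to 38 tags, with medians of 10.7 and 9.11.

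**Figure D3:**
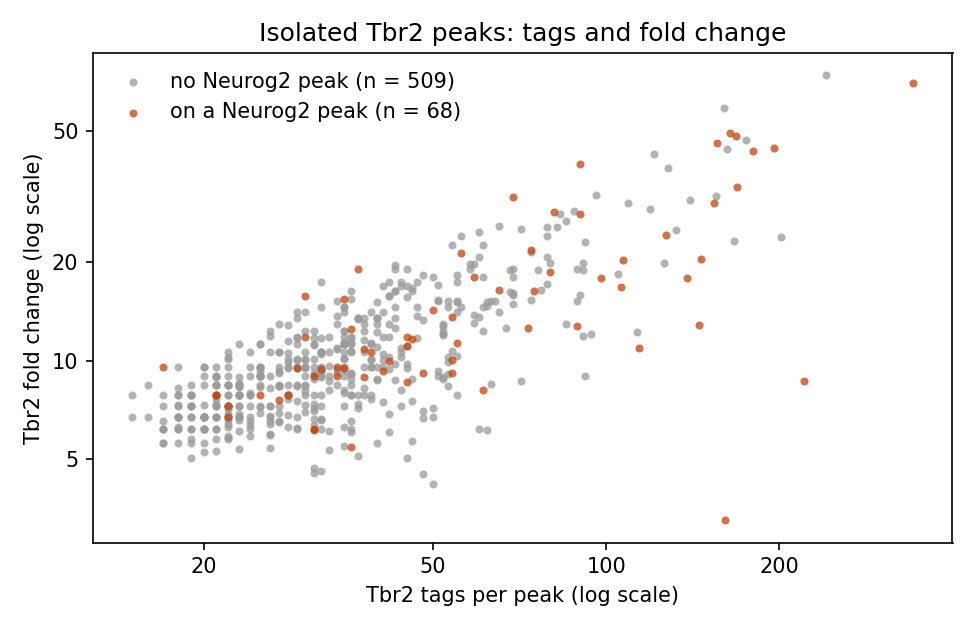
Fold change (vertical axis, log scale) against tags (horizontal axis, log scale) of the 577 isolated Tbr2 peaks, each 1 point, coloured by overlap with a Neurog2 peak. Fold change rises with tags, and 2 peaks with 161 and 221 tags have folds of 3.26 and 8.67.

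Some isolated peaks were among the strongest of the whole list. The 10 with the most tags held 167 to 342 and ranked 11 to 291 among the autosomal Tbr2 peaks by tags. The first lay on chromosome 15 at 98147397 to 98148392, with 342 tags in 996 bp, a fold change of 70.2 and a deposited p-value of 6.50e-289. Its nearest Tbr2 midpoints were 645 kb to the left and 405 kb to the right. The second, on chromosome 5 at 91416320 to 91417464, had 241 tags and the highest fold change of any isolated peak, 74.0, with no Neurog2 peak. Its flanks were 920 and 365 kb.

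The remaining leading peaks differed in shape. Narrow ones, with 168 to 180 tags in 770 to 982 bp, lay on chromosomes 17, 3, 4 and 7. They spanned 88144372 to 88145260 on chromosome 17 (fold change 43.5), 151213797 to 151214778 on chromosome 3 (47.1), 42955761 to 42956639 on chromosome 4 (33.7) and 109518138 to 109518907 on chromosome 7 (48.3). Wider ones spanned 30653631 to 30655259 on chromosome 8 (196 tags, 44.3-fold), 71280884 to 71282623 on chromosome 17 (201 tags, 23.9-fold) and 146230317 to 146231389 on chromosome 6 (167 tags, 23.2-fold). The tenth, on chromosome 10, is described with the widest members. The chromosome 6 peak had both neighbours at 699 kb or more. Of the 10 leading peaks, 6 overlapped a Neurog2 peak, near the share in the highest decile of Tbr2 peaks by tags, which was 51.4% for isolated and 46.1% for other peaks.

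The 3 widest members were the chromosome 17 peak at 71280884, with 1740 bp, and a pair with many tags but a low fold change. On chromosome 10 at 126946093 to 126949368, 221 tags were spread over 3276 bp at 6.75 tags per 100 bp, with a fold change of 8.67. On chromosome 4 at 146022779 to 146025134, 161 tags lay in 2356 bp, and the fold change was 3.26, the lowest of all isolated peaks. The left neighbour of the chromosome 10 peak was 323 kb away and the right one 2728 kb away. Both peaks overlapped a Neurog2 peak, with 45 and 56 tags and Neurog2 fold changes of 11.9 and 4.85. The 4.85 was also the lowest Neurog2 fold change among the 68 shared isolated peaks.

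At the other end of the range, 2 members had 15 tags. They spanned 50769398 to 50769734 on chromosome 1 (337 bp, 7.85-fold) and 74829472 to 74829817 on chromosome 8 (346 bp, 6.73-fold). Next came chromosome 4 at 135786694 and chromosome 9 at 80637694 (starts), with 16 tags each, and then 9 members with 17 tags, of which the rule for named regions took chromosome 2 at 14530119. The 4 members with 15 or 16 tags had deposited p-values from 3.43e-06 to 7.16e-06 and no Neurog2 peak. Among the 9 with 17 tags p-values ran from 1.56e-09 to 9.59e-06, and 1 overlapped a Neurog2 peak.

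The most remote peaks were weak to moderate. The peak farthest from any other Tbr2 midpoint was on chromosome 17 at 21610290 to 21610743, with 3848 kb on the left, 4293 kb on the right, 18 tags and a fold change of 6.17. On chromosome 7 at 114485074 to 114485921, 54 tags and a fold change of 10.0 stood between gaps of 4651 and 1834 kb, on a Neurog2 peak of 29 tags. On chromosome 14 at 44149768 to 44150282, 21 tags stood between gaps of 2381 and 1795 kb, on a Neurog2 peak of 16 tags. The other two were end peaks of chromosome 13, the first at 3950348 to 3951027 (44 tags, fold change 17.4, next peak 2078 kb away) and the last at 119595524 to 119595984 (18 tags, 7.85, 1663 kb). Over the 30 members with more than 1 Mb on each measured side, 3 of them end peaks, tags were 18 to 73 with a median of 31.5. Their fold changes were 6.17 to 24.7. A Neurog2 peak overlapped 7 of the 30, where the shares were 11.8% over all isolated and 14.0% over all autosomal Tbr2 peaks. This small count was not tested.

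Neurog2 overlap, from a library the rule did not use, was the comparison that could be tested. A Neurog2 peak overlapped 68 of 577 isolated peaks by at least 1 bp, 11.8% (9.40 to 14.7), and 1943 of 13744 other peaks, 14.1% (13.6 to 14.7). Over all autosomal Tbr2 peaks the share was 14.0%. The difference of -2.35 percentage points (interval -4.81 to 0.591) did not pass the threshold of 0.05 by Fisher's exact test, two-sided (odds ratio 0.811, interval 0.627 to 1.05, p = 0.126). The test treats peaks as independent and describes these lists only. It rests on the limit: by the same Fisher's exact test the odds ratio was 0.765 with 200 kb (p = 0.00473) and 1.01 with 500 kb (p = 0.915). Neither of these was stratified by tags.

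Overlap with Neurog2 rose with the tags of the Tbr2 peak, inside and outside the isolated set. Of isolated peaks, 3 of 80 in the lowest tag decile were on a Neurog2 peak, 3.75% (1.28 to 10.4), and 18 of 35 in the highest, 51.4% (35.6 to 67.0). Of the others, 1.60% (1.02 to 2.48) and 46.1% (43.5 to 48.7) were. The isolated share was the higher in 6 of 10 deciles. When the shares of the other peaks were weighted to the tag deciles of the isolated peaks, they gave 11.0%, against the observed 11.8%. Stratified by these deciles, the odds ratio was 1.09 (Mantel-Haenszel, interval 0.828 to 1.44), and by deciles of width it was 1.05 (0.805 to 1.37). Neither passed the threshold. Both intervals held odds ratios in either direction, so with 68 shared isolated peaks these values do not settle a direction.

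By distance, the share on a Neurog2 peak was 18.4% (17.2 to 19.7) for Tbr2 peaks with a neighbour at 1 to 10 kb, 11.8% (10.8 to 12.9) at 30 to 100 kb and 10.1% (8.80 to 11.7) at 100 to 200 kb. It was 10.7% (8.0 to 14.1) at 300 to 500 kb and 14.1% (9.83 to 19.9) past 500 kb. At 200 to 300 kb, just outside the rule, it was 10.8% (8.57 to 13.6). The interval past 500 kb held the share of each of these classes.

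**Figure D4:**
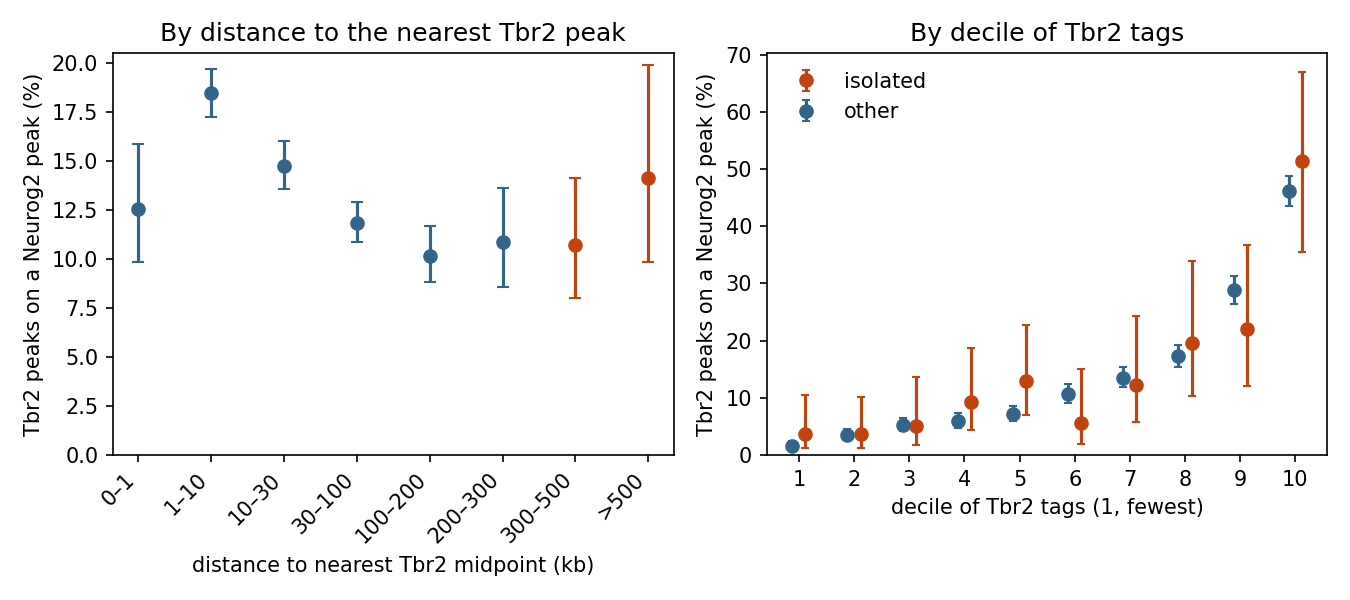
Percent of autosomal Tbr2 peaks on a Neurog2 peak, with 95% Wilson intervals, by distance in kb to the nearest Tbr2 midpoint (left, isolated in orange) and by decile of Tbr2 tags (right, isolated in orange, others in blue). Within tag deciles the intervals of isolated and other peaks overlap.

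Isolated peaks on a Neurog2 peak were stronger than those without one. They had a median of 54 tags (interval of the median 41 to 73) against 32 (31 to 34), a median width of 753 bp (711 to 794) against 648 bp (633 to 665), and, for fold change, a median of 11.8 (9.94 to 15.7) against 9.16 (8.89 to 9.53). Outside the isolated set the same split gave 71 against 36 tags. Shared isolated peaks therefore had fewer tags at the median than other shared peaks, 54 (41 to 73) against 71 (69 to 74).

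The Neurog2 peaks at these sites also had fewer tags and were narrower at the median. Each isolated peak had at most 1 Neurog2 peak, so 68 Neurog2 peaks were involved, with 10 to 106 tags and a median of 27 (interval 23 to 31). On other Tbr2 peaks the leading Neurog2 peak had a median of 33 tags (32 to 34). Their median widths were 249.5 bp (218 to 280) and 294 bp (288 to 299), and their median fold changes 12.5 (11.4 to 14.0) and 12.1 (11.8 to 12.5). The midpoints of the factors were close together, at a median of 52 bp (33 to 74.5) on isolated peaks and 72 bp (68 to 76.5) on others. They were within 200 bp in 62 of 68 isolated pairs, 91.2% (82.1 to 95.9), and in 85.2% (83.6 to 86.7) of other pairs. The 1943 other shared Tbr2 peaks held 2054 Neurog2 peaks. For each, only the Neurog2 peak with the most tags was used, which can raise the median tags of that set. The sets were not matched for Tbr2 tags. These values describe 1 Neurog2 library, and the differences were not tested.

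Across the 68 isolated pairs, tags of the factors were correlated with a Spearman rho of 0.53 and a Pearson r of 0.53 on log10 tags. Across 1943 other pairs the values were 0.35 and 0.36. No intervals were computed for these values and the difference between the sets was not tested. They describe 1 library for each factor. More Neurog2 than Tbr2 tags were counted at 8 isolated pairs, 11.8% (6.08 to 21.5), and at 12.1% (10.8 to 13.7) of other pairs.

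The isolated site with the most Neurog2 tags was on chromosome 17, where a Neurog2 peak at 88144613 to 88145035 with 106 tags and a fold change of 22.2 lay 8 bp from the midpoint of the 180-tag Tbr2 peak. Chromosome 11 followed, with 77 Neurog2 tags at 75683385 to 75683744, 26 bp from the midpoint of a 106-tag Tbr2 peak. On chromosome 4 the Tbr2 peak at 74199406 to 74200231 (164 tags, fold change 49.3) held 73 Neurog2 tags and that at 42955761 held 72. On chromosome 9, at 54930925 to 54931571, a weak Tbr2 peak of 34 tags held 56 Neurog2 tags with a fold change of 15.8. The remaining 5 of the leading 10 had 51 to 63 Neurog2 tags and lay on chromosome 9 at 123293594, chromosome 17 at 66625796, chromosome 8 at 75170014 and 30653631, and chromosome 4 at 146022779 (Tbr2 starts). The strongest isolated Tbr2 peak, on chromosome 15, held a Neurog2 peak of only 27 tags and a fold change of 7.73.

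Few isolated Tbr2 peaks had another Neurog2 peak in the region. Beside any Neurog2 peak they overlapped, 545 of 577, 94.5% (92.3 to 96.0), had no further Neurog2 midpoint within 300 kb. This share was not computed over all other Tbr2 peaks, so it cannot be called particular to isolated peaks. Among the 68 shared sites, 64 had none, and both factors were then isolated at once. Among other shared sites, 644 of 1943, 33.1%, had no further Neurog2 midpoint within 300 kb. The rule bears on this contrast, since it removes regions with a second Tbr2 peak. Of the 2571 autosomal Neurog2 peaks, 2054 lay on the other Tbr2 peaks. How much of the contrast the rule sets was not tested. Within 300 kb of isolated peaks 38 further Neurog2 peaks were found. They lay on no Tbr2 peak, which the rule all but fixes, and 449 autosomal Neurog2 peaks did so in all. In 4 cases 1 was within 10 kb without overlap, the nearest 2175 bp from the midpoint of the chromosome 6 peak at 130626932 to 130627517 (22 tags).

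Isolated peaks were spread over all 19 autosomes. Between the first and last Tbr2 peak of a chromosome they numbered 0.242 per Mb over the genome, with 0.129 on chromosome 7 at the low end and 0.284 on chromosome 17 at the high end. As a share of the chromosome's Tbr2 peaks they were highest on chromosome 17, 26 of 422 or 6.16% (4.24 to 8.87), and chromosome 10, 5.12% (3.71 to 7.04). They were lowest on chromosome 7, 19 of 687 or 2.77% (1.78 to 4.28), and chromosome 4, 2.86% (2.01 to 4.06). Neighbours in this order did not differ beyond their intervals. The intervals of chromosomes 17 and 7 overlapped narrowly, and those of chromosomes 17 and 4 did not overlap. Chromosome 17 had the fewest Tbr2 peaks per Mb, 4.60, and chromosome 4 the most, 6.95. Chromosome 7 did not follow this order, with 4.68 Tbr2 peaks per Mb and the lowest isolated share. Across the 19 autosomes the Spearman rho of Tbr2 peaks per Mb and isolated share was -0.584. The shares and this rho are set by the positions that made the rule and were not tested.

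**Figure D5:**
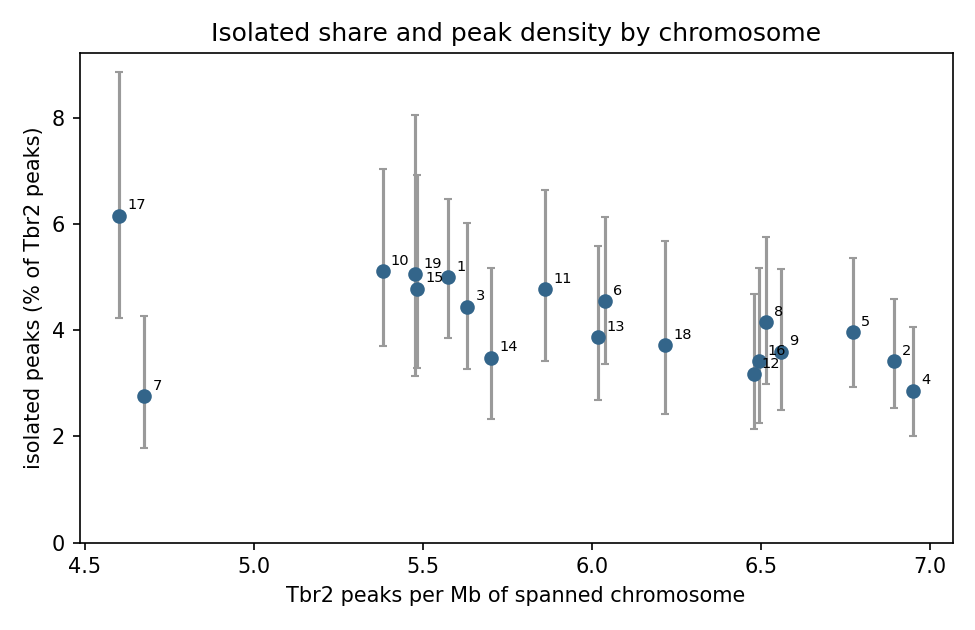
Isolated peaks as a percent of Tbr2 peaks (vertical axis, 95% Wilson intervals) against Tbr2 peaks per Mb of spanned chromosome (horizontal axis) for the 19 autosomes, each labelled by its number. Chromosome 17 is highest and chromosome 7 lowest at nearly equal density.

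Along the chromosome, divided into 5 equal parts from the first to the last peak in genome order, isolated peaks made up 4.25%, 3.90%, 5.42%, 3.74% and 3.16% of the Tbr2 peaks. The middle part had 140 of the 577 and the highest share (interval 4.61 to 6.36), and the last part had the lowest (2.61 to 3.82). These shares are also set by the positions that made the rule. They were not tested, and the intervals treat peaks as independent. Median tags of isolated peaks by chromosome ran from 26 on chromosome 18, with 20 members, to 44 on chromosome 7, with 19. The share of isolated peaks on a Neurog2 peak rests on few peaks per chromosome. The lowest was 1 of 27 on chromosome 13, 3.70% (0.657 to 18.3), where 15.2% of all Tbr2 peaks overlapped Neurog2. The highest was 7 of 19 on chromosome 7, 36.8% (19.1 to 59.0), where 14.6% of all Tbr2 peaks did. Chromosome 14 followed with 7 of 23, 30.4% (15.6 to 50.9), against 13.6% of all. These 3 chromosomes were picked as extremes out of 19 after their values were seen.

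Some isolated peaks followed each other. Of the 577, 300 had peaks outside the rule on both sides or stood at an end beside one, and 277 lay in 115 runs of at least 2 consecutive isolated peaks. The rule favours such runs, since the neighbour of an isolated peak already has 1 flank over 300 kb, so these counts are a description. The longest run, 6 peaks over 2840 kb, was on chromosome 8 at 74242811 to 77082312. Its first peak had 50 tags and a Neurog2 peak of 19 tags. Then came the 15-tag peak at 74829472 and, 341 kb on, the 74-tag peak at 75170014 with its Neurog2 peak of 57 tags. The last 3 had 34, 42 and 60 tags and no Neurog2 peak. Fold changes along the run went from 6.73 to 21.7, so members of quite different strength stood in 1 sparse region.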

How the data were processed

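ChIP-seq peaks of Tbr2 and Neurog2 (1 library each) were read as the authors deposited them. The submitters' processing notes name Bowtie 0.12.3, MACS 1.4 and the build mm9. Which control was used, the settings and the handling of duplicates are not stated there. GeneProf exported the lists, per the file headers. Each peak's deposited text field gives its fold change, FDR, p-value and tags, and tags are not scaled to depth. The score column the authors deposited is 750 in every row and was not used. Starts were converted to count from 1.

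Distances, overlaps (at least 1 bp), medians and shares were computed with Python 3.11.15, pandas 2.3.3 and scipy 1.17.1. Stratified odds ratios were computed with statsmodels 0.14.6. Intervals are 95% Wilson intervals for shares and binomial order-statistic intervals for medians. The functions were tested on simulated positions. Named regions were, among isolated peaks, the 10 with the most tags, 5 with the fewest, 5 farthest, 10 with the most Neurog2 tags, 3 widest, and 3 on each side of the limit. Others named, such as those near a Neurog2 peak and the longest run, were chosen after their values were seen. The members and rules were chosen with earlier results of these data known. No mm9 sequence or gene annotation was used here, so no genes or sequences are given. Alternatives changed the isolation distance, its measurement, p-value limits, chromosome ends, the overlap rule and stratification.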

Additional observations from a re-analysis of the deposited data

How the results depend on the processing

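Of 52 values recomputed under the alternatives, 34 kept their direction and side of the threshold or stayed within the interval of the reported value. The number of isolated peaks was 1158 (8.09% of autosomal peaks) with 200 kb, 184 (1.28%) with 500 kb and 900 (11.5%) among peaks with p at most 1e-10. With 500 kb the median width of isolated peaks was 641 bp. Among Tbr2 peaks with p at most 1e-10, isolated peaks had medians of 763.5 bp, 51 tags and a fold change of 13.5, against 809 bp, 57 tags and 13.5 for the others. Of these isolated peaks 18.7% overlapped Neurog2, with a median of 32 Neurog2 tags. With only Neurog2 peaks at p at most 1e-10 these were 6.93% and 36 tags. The odds ratio of Neurog2 overlap was 0.765 with 200 kb, past the threshold (Fisher's exact test, p = 0.00473). That value was not stratified by tags, and the median tags at 200 kb were 35 for isolated and 39 for other peaks. The odds ratio was 1.01 with 500 kb. With 300 kb it was 1.09 over tag deciles and 1.05 over width deciles. Under the other 7 alternatives it was 0.741 to 0.841, and no p fell below 0.0562. Each limit itself admits fewer or more peaks, and the causes of these shifts were not tested. No paired analysis was possible because each factor has 1 library. The unknown depth sets which weak peaks are listed, and a site is isolated only among listed peaks.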

Other observations

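On the X chromosome, which the rule leaves out, 59 of 212 Tbr2 peaks had no other Tbr2 midpoint within 300 kb, 27.8% (22.2 to 34.2), against 4.03% on the autosomes. Their median was 28 tags, against 31 for the other X peaks. A Neurog2 peak overlapped 5 of the 59, and the share over the other X peaks was not computed, so this count stands without a comparison. The share under a fixed distance depends on how many peaks are listed per Mb, which was not computed for the X. Depth of the X relative to the autosomes was not measured here.

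Among peaks with at least 100 tags, 2 of 33 isolated peaks had a fold change under 10, those on chromosomes 4 and 10 described above, and both overlapped a Neurog2 peak. Of the other Tbr2 peaks with at least 100 tags, 29 had a fold change under 10, 2.43%, and 13 of the 29 overlapped a Neurog2 peak. In the highest decile of Tbr2 tags, 51.4% of isolated and 46.1% of other peaks overlapped a Neurog2 peak. The limits of 100 tags and a fold change of 10 were chosen after the values were seen.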
